A study of Drosophila melanogaster with 3 samples.

Results

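The Polycomb group genes described here are 10 loci of Drosophila melanogaster, ph-p, ph-d, Psc, Su(z)2, E(z), Su(z)12, esc, Pc, Sce and pho, taken from 13945 protein-coding genes by their Ensembl symbols, and all 10 matched a gene model. For each gene, peaks were collected within its span plus 5 kb on either side, which is called its window. The binding of Aef1 was mapped by chromatin immunoprecipitation and sequencing (ChIP-seq) in whole embryos aged 0 to 24 h, from a single strain, Aef1-GFP, that carries an Aef1-eGFP fusion. An antibody against GFP pulled down the tagged protein from chromatin sheared by sonication. The 3 biological replicates formed 1 group, and no untagged, input or second group was analysed here, so no comparison of conditions was possible. Values from whole embryos mix all cell types and many stages, and the protein read is the tagged form.

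Polycomb proteins keep developmental genes silent through cell division. PRC1 holds Pc, which reads the methylated histone H3 tail, a Polyhomeotic protein (ph-p or ph-d), a Psc or Su(z)2 subunit, and Sce, the RING-type ubiquitin ligase. PRC2 holds E(z), the enzyme that methylates a lysine of histone H3, and its partners Su(z)12 and esc, while pho encodes a DNA-binding protein that helps to recruit both complexes to Polycomb response elements. The loci of ph, Psc and Su(z)2 are themselves known targets of Polycomb repression in flies. Aef1 is a zinc finger protein of the C2H2 type, known to bind CAACAA repeats.

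The following stretches of the Release 6 plus ISO1 MT assembly from RefSeq (dm6 coordinates, plus strand) lay inside peaks of all 3 replicates and show the DNA on which the accounts of ph-p, ph-d, E(z), Pc and Sce rest. Capitals mark the bases between the lowest and highest of the 3 summits, and bases in untranslated regions were left out. The first is the strongest site of any of the 10 genes, inside ph-p. The stretch of 284 bases held 40.8% G or C and its summits lay within 12 bp. The second lies between ph-p and ph-d and holds 1 CAACAA, read on the other strand. The third is a stretch of the E(z) promoter region outside the 5′ untranslated region. Its capitals end where the untranslated region begins, short of the highest summit. The stretch is 9.52% G or C, with an uninterrupted A/T run of 24 bases and 2 TATAAA words that lie before and within the capitals. The last pair comes from the windows of Pc and Sce, at the starts of neighbouring genes.
ph-p intron, chrX:2137208-2137491: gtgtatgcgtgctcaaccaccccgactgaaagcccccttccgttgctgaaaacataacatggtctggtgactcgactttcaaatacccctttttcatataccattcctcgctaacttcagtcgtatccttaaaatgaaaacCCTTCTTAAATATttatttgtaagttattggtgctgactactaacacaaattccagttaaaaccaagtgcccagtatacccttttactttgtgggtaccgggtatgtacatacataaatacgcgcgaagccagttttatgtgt
ph-p and ph-d intergenic, chrX:2123971-2124116: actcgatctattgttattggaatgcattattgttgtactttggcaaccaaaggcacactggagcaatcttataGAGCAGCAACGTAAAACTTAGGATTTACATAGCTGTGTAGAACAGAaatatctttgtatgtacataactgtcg
E(z) promoter, chr3L:10638000-10638041: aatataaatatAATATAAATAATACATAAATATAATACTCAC
Pc window, chr3L:21304503-21304608: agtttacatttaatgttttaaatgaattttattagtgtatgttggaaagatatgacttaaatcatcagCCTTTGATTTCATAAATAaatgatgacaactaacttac
Sce window, chr3R:27677245-27677505: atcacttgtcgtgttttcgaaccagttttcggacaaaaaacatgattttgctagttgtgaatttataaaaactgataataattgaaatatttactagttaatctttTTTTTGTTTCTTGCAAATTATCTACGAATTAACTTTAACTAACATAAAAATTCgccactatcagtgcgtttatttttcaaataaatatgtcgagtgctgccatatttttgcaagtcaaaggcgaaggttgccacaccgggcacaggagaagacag

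The authors deposited for each replicate a list of peaks thresholded on the irreproducible discovery rate (IDR), a rate that is low when a peak keeps its order in a repeat of the call. These lists held 3495, 3126 and 2942 peaks in replicates 1, 2 and 3, the order in which all further values are given. The unthresholded ranked lists held 29199, 43924 and 49093 peaks. Each peak has a signal from the authors' caller, on an unstated scale, so peaks are compared below by their rank on that signal, given as a percentage of the list length, where a small value is a strong peak. In each list most peaks shared 1 width (316, 310 and 310 bp, in 73.4%, 78.7% and 81.0% of peaks), so positions are given by the summit. The number of sequenced reads was not used here and the depth is unknown.

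Of the 10 Polycomb group genes, 8 had a peak in their window in each replicate (mean 8 ± 0, SD, n = 3), and they were the same 8 genes. Over all 13945 genes the share with a peak was 43.2%, 39.4% and 37.9% in the 3 replicates (mean 40.2% ± 2.71, SD, n = 3), and 32.0% had one in all 3. A window grows with the gene, and the 10 genes had a median span of 8360 bp, against 2166 bp over all genes. Among the 7431 genes with a span between 1599 and 14998 bp, the range of the 10, the share called in all 3 replicates was 35.3%. The median span of those genes was 3191 bp, so shares in this range are not matched to the length of the 10 genes. A narrower rule, a summit within 500 bp of one of the gene's own transcript starts, uses a distance that does not grow with the span, although genes with more starts have more places to be called. By that rule 5 of the 10 genes were called in all 3 replicates (ph-p, Psc, Su(z)2, E(z) and Su(z)12), beside 11.3% of all genes and 13.8% of genes in the same span range. No test was made of these counts, since the 10 genes are a chosen list, some with adjoining windows.

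The strongest peaks of the 8 genes spread over almost the whole list. Ordered by mean rank, they were ph-p at 0.306% ± 0.0604, Psc at 2.06% ± 0.69, E(z) at 10.1% ± 1.13, Pc at 11.3% ± 4.25, ph-d at 13.9% ± 3.84, Su(z)2 at 28.7% ± 3.56, Su(z)12 at 48.8% ± 13.0 and Sce at 74.6% ± 16.6 (SD, n = 3 each). The replicate ranges of ph-p and Psc overlapped no other gene's. Those of E(z), Pc and ph-d overlapped each other, Su(z)2 stood apart from its neighbours in the order, and the ranges of Su(z)12 and Sce met at 63.7%. The median over the 8 genes was 12.6%, beside 29.5% over all genes called in the 3 replicates, with quartiles at 12.5% and 49.4%. A longer window has more places for a strong peak, and the 10 genes have longer windows. With no flank the median over all called genes was 34.8%, and with a 10 kb flank 26.9%. The ranks were not adjusted for window length. Of the 10 genes, 1 (ph-p) had its strongest peak among the best 1% of the list in all 3 replicates, as did 0.717% of all genes.

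**Figure D1:**
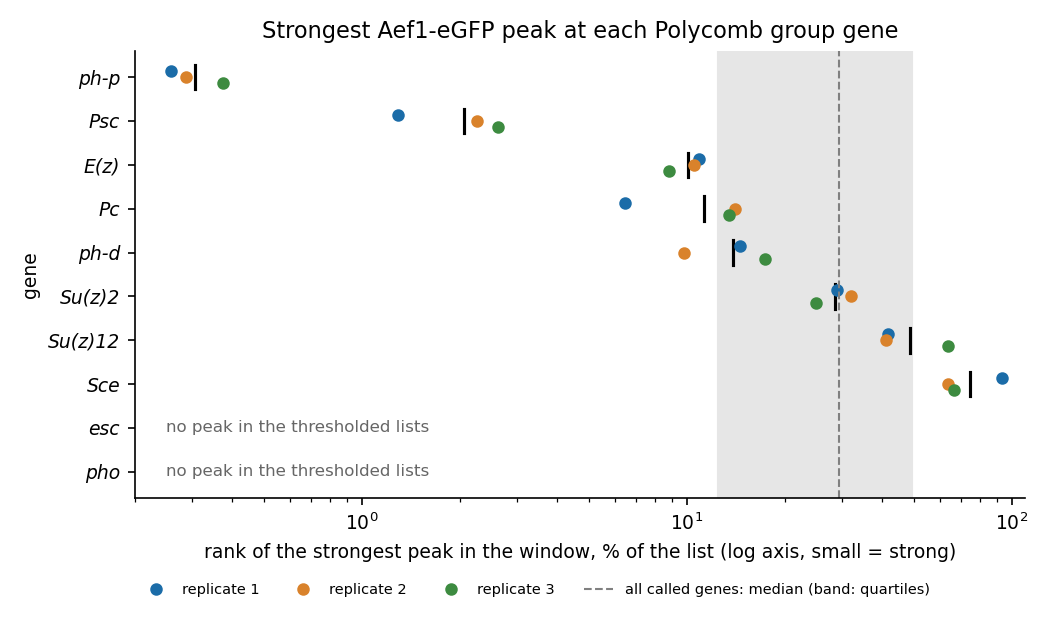
Rank of the strongest Aef1-eGFP peak in each gene's window, as a percentage of the replicate's list on a log axis, with 1 point per replicate and a black bar at their mean. The dashed line and grey band are the median and quartiles over all called genes, not adjusted for window length. The points of ph-p and Psc lie left of the band at 0.258% to 2.62%, and those of E(z) also left of it at 8.8% to 10.9%. Those of Sce lie right of it at 63.7% to 93.7%, and esc and pho have none.

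The 8 genes' windows held 16, 16 and 15 peaks, which merged into 17 regions. Of these, 14 had a peak in all 3 replicates, 2 in a pair of replicates and 1 in a single one. Among the 14, 8 lay within 500 bp of a protein-coding start, 3 in introns and 3 between genes. Promoters held 57.1% of the 14 regions and 54.9% of all 2081 regions found in 3 replicates. The nearest protein-coding start belonged to one of the 10 genes for 11 of the 14. Regions were concentrated at few of the genes, since ph-p had 5, Psc 3, Su(z)2 2, and ph-d, E(z), Su(z)12, Pc and Sce 1 each, with 1 region counted for both ph-p and ph-d. The mean was 1.5 regions per gene for the 10, against 0.421 over all genes, and the median 1 against 0. The 10 genes have longer windows, and counts of regions were not adjusted for window length. Having 5 or more, as ph-p did, was found at 24 genes, 0.172% of all.

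**Figure D2:**
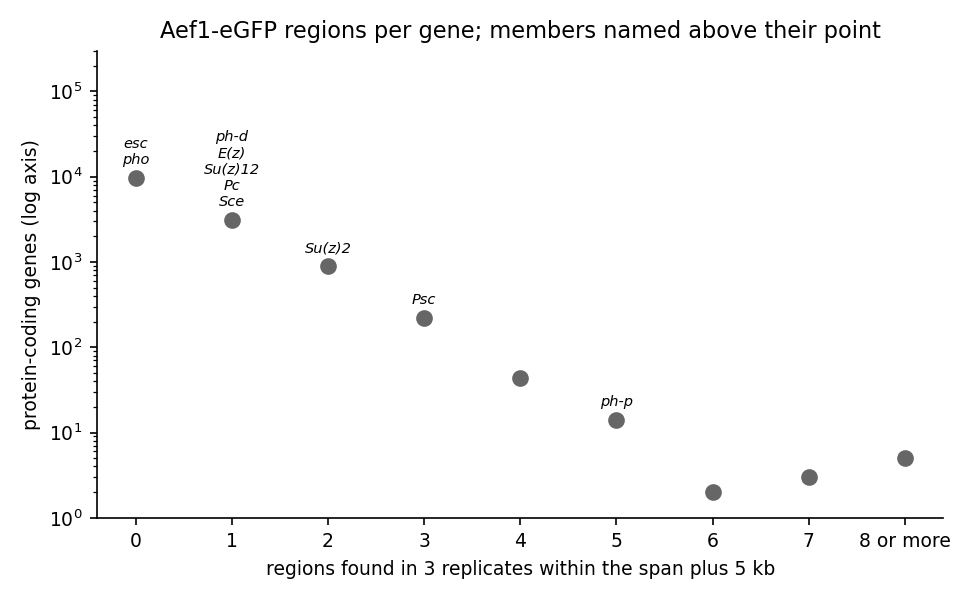
Number of protein-coding genes (log axis) by the number of regions found in 3 replicates within their window, with the Polycomb group genes named above their point. Most genes (69.3%) have no region, like esc and pho, and ph-p stands at 5 regions.

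ph-p (FBgn0004861) spans chrX:2126210-2138371 on the minus strand and has 3 annotated starts, and its tandem copy ph-d (FBgn0004860) spans chrX:2115727-2123286, downstream of it. Both encode Polyhomeotic, the PRC1 subunit whose SAM domain forms chains. The ph-p window held 7, 7 and 6 peaks. The strongest region, chrX:2137198-2137509, lies in an intron between the outermost start and the next start and is the first sequence shown above. Its signal was 887.1, 800.8 and 690.4, and it ranked 9, 9 and 11 of the 3 lists. Its summits sat at −503, −494 and −506 bp from the nearest ph-p start (negative values are upstream), so that only replicate 2 put it within the 500 bp of a promoter call.

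The second ph-p region, chrX:2137719-2138064, lies in the 5′ untranslated region of the outermost transcript. Its signal was 331.4, 344.2 and 267.4, at ranks 116, 77 and 99 (mean 3.05% ± 0.508, SD, n = 3). The summits lay 480, 490 and 482 bp downstream of the start at 2138371. A weaker promoter region, chrX:2136369-2136690, ranked 2479, 2123 and 2096 (mean 70.0% ± 1.84, SD, n = 3), and its summits lay 89, 90 and 98 bp downstream of the start at 2136622. In every list the order of these regions was the same, the intronic one first, the one under the outermost start next and the weaker promoter region last.

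A further intronic region of ph-p, chrX:2135157-2135604, had a signal of 67.8, 73 and 72.8 and ranked 1926, 1334 and 1250. Its summits were spread over 135 bp, against 12 bp at the strongest region. The IDR of this further region was 0.008 in replicate 1, near the lists' limit of 0.01, and 3.9e-05 and 2.6e-05 in replicates 2 and 3. Another pair of regions was found in fewer replicates. The region chrX:2134293-2134631 was listed in replicates 1 and 2 at ranks 2604 and 2736, and chrX:2138459-2138774, upstream of the outermost start, in replicates 1 and 3 at ranks 2111 and 897.

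ph-d shares with ph-p the region chrX:2123940-2124156, which lies between the genes and is the second sequence shown. Its signal was 153.1, 171.3 and 121.7, at ranks 511, 306 and 511, and its summits sat at −803, −791 and −758 bp from the outermost ph-d start. The distance to the nearest ph-p start was 12533 bp or more, so the region lies closer to ph-d, although it falls in both windows. The promoter of ph-d itself was listed only in replicate 2, at chrX:2123014-2123323, with signal 58.0, rank 1851 and an IDR of 0.00039. In the ranked lists of replicates 1 and 3 the strongest peak at this promoter stood at rank 5631 and 4408, with an IDR of 0.307 and 0.127. The best promoter peak of ph-p thus ranked above that of ph-d in every replicate. All 50-base words of the 17 regions occurred once on the 6 chromosome arms used here, counting exact matches. Read length and the authors' mapping are not known here, and the part of misplaced reads between the copies was not tested.

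**Figure D3:**
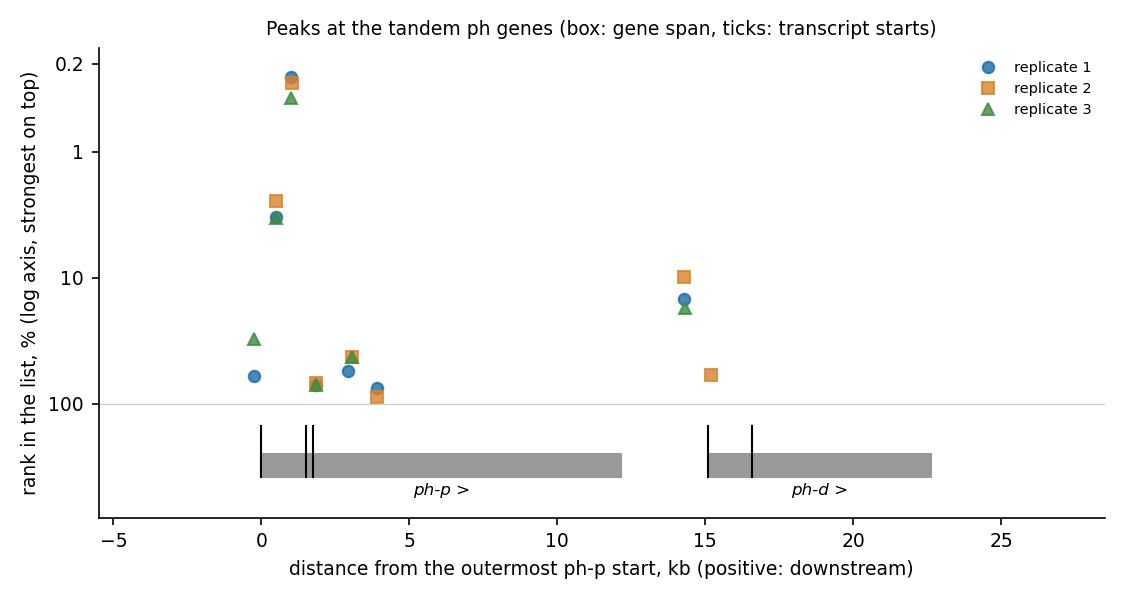
Summits of the peaks at ph-p and ph-d by distance in kb from the outermost ph-p start (positive is downstream) and by rank as a percentage of the list (log axis, strongest on top), with a symbol per replicate. Grey boxes are gene spans and ticks are transcript starts. The peaks ranked best stand in the first part of ph-p at 0.258% to 0.374%, and the only region between the genes ranks at 9.79% to 17.4%.

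Psc (FBgn0005624) and Su(z)2 (FBgn0265623), which encode related RING finger subunits of PRC1, are neighbours transcribed away from each other, at chr2R:12965997-12980994 (minus strand) and chr2R:12996501-13007911 (plus strand). The strongest Psc region, chr2R:12985063-12985356, lies between the genes. Its signal was 518.7, 358.1 and 306.4, at ranks 45, 71 and 77, and its summits, within 6 bp of each other, sat at −4212, −4212 and −4206 bp from the Psc start. The same region lay at −161 bp from the start of a noncoding gene, lncRNA:CR44339. Within 50 bp of the summit it was 20.8% G or C, below the lower quartile of 26.7% over the 2081 regions. The second ph-p region (19.8%) and the region in the Sce window (18.8%) were lower still, and the strongest ph-p region was at 32.7%. An intronic Psc region, chr2R:12975424-12975768, had a signal of 160.3, 121.2 and 111.2 and ranked 474, 586 and 605. At the Psc promoter, chr2R:12980737-12981057, the signal was 86.5, 66.7 and 71.2 and the ranks 1375, 1511 and 1293, with summits 99, 102 and 91 bp downstream of the start. In all 3 lists the order at Psc was the same, with the intergenic region first, the intronic one next and the promoter last.

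The strongest Su(z)2 peak ranked below that of Psc in each list. That region, upstream at chr2R:12991610-12991997, had a signal of 103.9, 86.9 and 99.9 and ranked 1017, 1004 and 736, at −4662, −4736 and −4658 bp from the Su(z)2 start, and the nearest start is that of CG33798. Its promoter region, chr2R:12997156-12997519, differed between replicates, with a signal of 47.8, 41.1 and 66.8 and ranks of 2924, 2760 and 1436 (mean 73.6% ± 21.6, SD, n = 3). The IDR was 0.0039 and 0.0042 in replicates 1 and 2, near the lists' limit of 0.01, and 7.5e-05 in replicate 3. More regions lay just past the windows. Outside the Psc window, 2 regions found in 3 replicates stood 6707 and 7783 bp beyond the span (mean rank 38.8% and 16.4%), and outside that of Su(z)2, 3 stood 5295, 6987 and 7957 bp beyond it (67.8%, 30.8% and 11.9%). Just inside, the outermost regions stood 4212 bp beyond Psc and 4662 bp beyond Su(z)2.

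**Figure D4:**
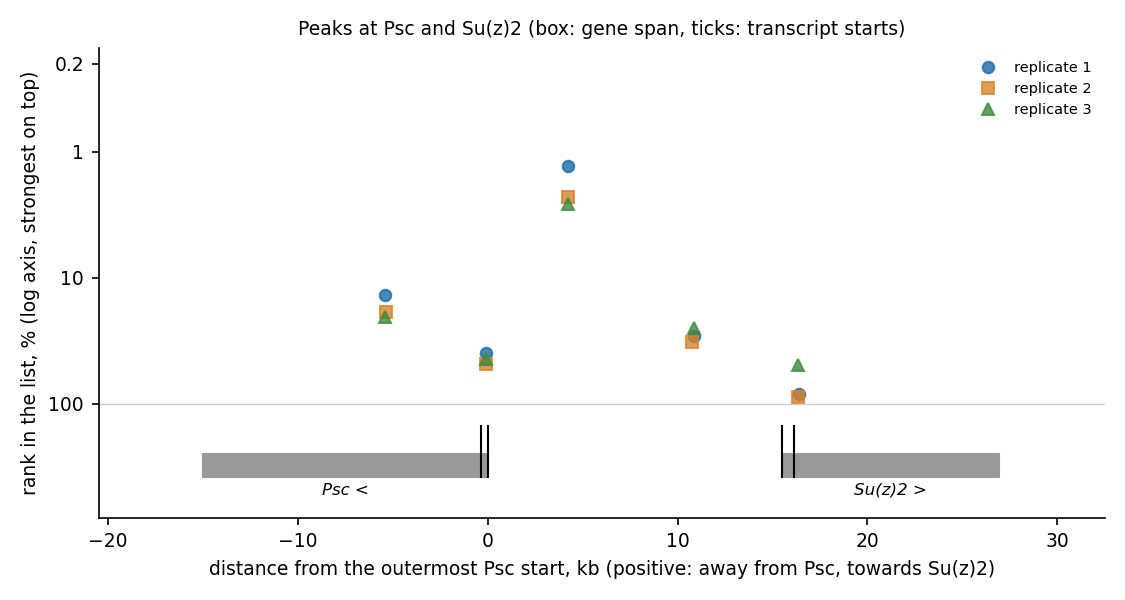
Summits of the peaks at Psc and Su(z)2 by distance in kb from the outermost Psc start (positive is towards Su(z)2) and by rank as a percentage of the list (log axis, strongest on top), with a symbol per replicate. The best-ranked peaks, at 1.29% to 2.62%, stand between the genes, and those at the Su(z)2 promoter at 48.8% to 88.3%.

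Among the PRC2 genes, E(z) and Su(z)12 had a promoter peak in each replicate and esc had none. E(z) (FBgn0000629, chr3L:10634575-10638130, minus strand) had 1 region, chr3L:10637856-10638165. Its signal was 182.5, 165.2 and 174.6, at ranks 382, 329 and 259, with summits 71, 119 and 55 bp downstream of the nearest start. The region faces the divergent start of Cnep1r2, from which its summit lay at −87 bp, so it cannot be assigned to E(z) alone. The A/T-rich stretch shown for E(z) is a part of this region next to the untranslated one.

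Su(z)12 (FBgn0020887, chr3L:19918242-19923462, minus strand) also had 1 region, chr3L:19923120-19923556, in its 5′ untranslated region. The signal was 83.6, 75 and 56.0, at ranks 1450, 1285 and 1875, with summits 184, 60 and 179 bp downstream of the start. Replicate 3 ranked it lowest, at 63.7% against 41.5% and 41.1%. The divergent start of Pfdn6 lay farther off, with the summit at −388 bp from it. That is also within the 500 bp of a promoter call, so the region cannot be assigned to Su(z)12 alone.

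esc (FBgn0000588, chr2L:11827204-11829405, minus strand), which encodes the WD-repeat subunit of PRC2 and lies inside the span of Pde1c, had no thresholded peak in its window. In the ranked lists its window held 4, 3 and 8 peaks. The strongest ranked 14462, 11751 and 4932, with an IDR of 0.82, 0.753 and 0.296, and the first pair sat at −50 and −47 bp from the esc start while that of replicate 3 lay 4142 bp downstream. All 3 lists therefore placed esc far below their threshold.

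Pc and Sce were called only through their flanks. The call of ph-d in all 3 replicates also rested on its flank, on the region 791 bp beyond its span. Pc (FBgn0003042, chr3L:21306138-21318020, minus strand) had a single region, chr3L:21304467-21304678, with a signal of 241.3, 141.4 and 141.8 at ranks 225, 440 and 397. It lies 1557 bp beyond the downstream end of Pc and 13432 to 13449 bp from its start, while the nearest start is that of CG11309, 77, 70 and 87 bp upstream of the summits, and CG7632 starts divergently with the summit at −116 bp. Replicate 1 ranked it higher than the other replicates did, at 6.44% against 14.1% and 13.5%. At the Pc promoter no peak was listed in the ranked list of replicate 1, and those of replicates 2 and 3 stood at rank 15323 and 28020, with an IDR of 0.499 and 0.881. Annotated transposon sequence fills 9101 bp, or 76.6%, of the Pc span, and its part in the absence of peaks there was not tested.

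Sce (FBgn0003330, chr3R:27680431-27682029, minus strand) had a single region, chr3R:27677196-27677560, 3076 bp beyond its span. The signal was 41.6, 55.2 and 54.0, at ranks 3276, 1991 and 1955, and the IDR 0.0078, 0.00017 and 0.00059. Set against the strongest peak of each of the other called genes, it ranked lowest in each replicate. Its summits lay at −119, −171 and −167 bp from the start of Hsdl2, the nearest one. The Sce promoter had no peak in the ranked lists of replicates 1 and 2, and in replicate 3 it had one at rank 32392 with an IDR of 0.881.

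**Figure D5:**
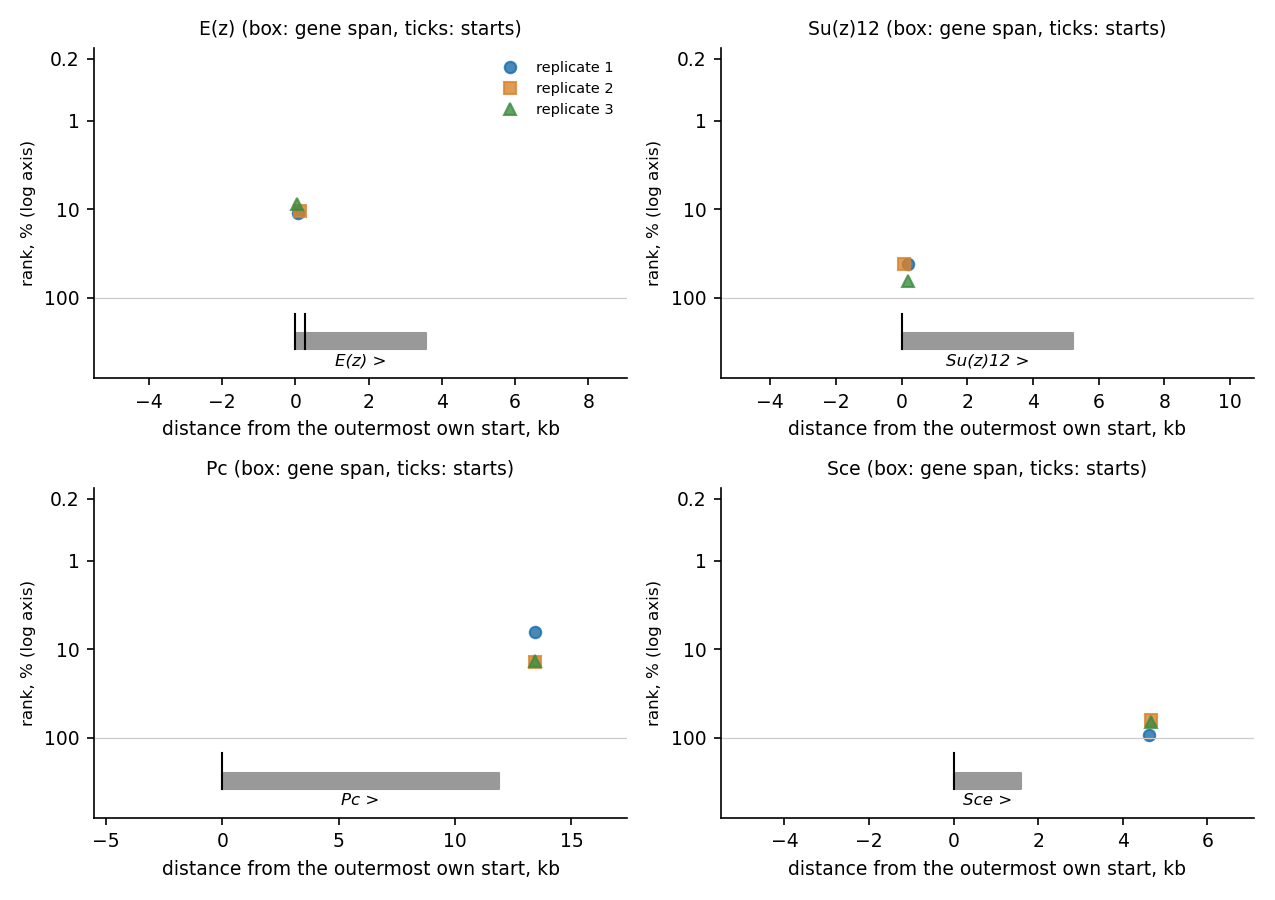
Summits of the peaks at E(z), Su(z)12, Pc and Sce by distance in kb from the gene's outermost start (positive is downstream) and by rank as a percentage of the list (log axis, strongest on top), with a symbol per replicate and grey boxes for gene spans. At E(z) and Su(z)12 the points stand at the start, and at Pc and Sce they stand beyond the downstream end of the box.

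pho (FBgn0002521), which encodes the DNA-binding factor of PhoRC, spans chr4:1172469-1181628 on the minus strand. It had no peak in its window in any thresholded list, and none in the ranked lists either, as was the case for 2.12% of all genes. On chromosome 4, 25 of its 80 genes had no ranked peak and 5 were called in all 3 replicates. The ranked lists held 82, 43 and 54 peaks on that chromosome and the thresholded ones 8, 6 and 5. Transposons fill 44.4% of the pho window, and whether reads could be placed there was not tested. Its paralogue phol, in contrast, was called in all 3 replicates, at ranks 34, 35 and 49, by a region nearest to the start of CG3552.

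Short words were looked up on both strands within 50 bp of the summits of the 14 regions. CAACAA, the word of Aef1, was found in 4 regions (28.6%), beside 17.7% of all 2081, namely the Psc promoter, both Su(z)2 regions and the region in the Pc window. The regions with the best ranks at ph-p and Psc did not hold it. The longer CAACAACAA was in 0 of the 14 regions and in 5.05% of all. TATAAA was in 3 regions (21.4%; 22.5% of all), GAGAG, a word of GAGA factor, in 1 (7.14%; 9.61%), GCCAT, the core word of Pho, in 0 (13.5% of all) and TATCGATA, a word of the factor DREF, in 0 (1.54%). The G or C content of the 14 central windows ran from 18.8% to 57.4% with a median of 31.2%, beside a median of 31.7% over all regions. A word is a description of the letters and not of a bound site.

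Other genes of the Polycomb system were counted by the same rules. Of 25 matched genes outside the 10, 15 (60.0%) had a peak in their window in all 3 replicates and 4 (16.0%) at their own promoter, beside 32.0% and 11.3% of all genes. These shares were not adjusted for gene length. The recruiters and cofactors, proteins that bind DNA or act with those that do, had 7 of 8, with Trl (GAGA factor) at mean rank 1.0% and ranks 42, 29 and 26, followed by cg at 9.25%, Dsp1 at 14% and grh at 20.7%, and z without a peak in all 3 replicates. In replicate 1 the strongest Trl peak lay inside the gene at −1534 bp from a start shared with CG42507. Of the further genes counted for PRC2, 3 of 5 were called, Caf1-55 at 0.627% (ranks 15, 22 and 22), Pcl at 19.8% and jing at 58.8%, and Jarid2 and escl were not. The strongest Caf1-55 peak of replicate 1 lay closest to the start of Art3, 3954 bp from the Caf1-55 start. Of the further PRC1 and variant PRC1 genes, RYBP was called at 5.16% and Scm, Kdm2 and l(3)73Ah were not. Both PhoRC genes were called, phol at 1.25% and Sfmbt at 52.2%, and neither gene of the deubiquitinase PR-DUB, caly and Asx. In the remaining list crm (15.1%) and mxc (58.8%) were called while sxc and E(Pc) were not.

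Genes that Polycomb is known to repress and other related lists were counted next, to be read beside 32.0% of all genes by the window and 11.3% by the promoter. Of the 8 Hox genes, which set segment identity and are long (median span 30563 bp), 1 was called in its window, Antp at 39.3%, and 0 at a promoter, and lab, pb, Dfd, Scr, Ubx, abd-A and Abd-B were not called in all 3 replicates. Of 10 further classical targets, 2 were called, hth at 14.4% and salm at 16.4%, and en, inv, Dll, wg, eve, ey, Doc1 and slou were not. Of 16 Trithorax group genes, whose products oppose Polycomb, 10 (62.5%) were called in the window and 5 (31.2%) at the promoter. These genes had a median span of 8484.5 bp, against 2166 bp over all genes, and the shares were not adjusted for it. Among them ash1 led with rank 2, 2 and 2, at a peak next to the start of CG14100, 8132 bp from that of ash1, followed by brm at 1.16%, osa at 1.94% and wds at 12.1%. Of 10 insulator genes, 5 (50%) were called in the window and 2 at the promoter, led by pita at 10.1%, Cp190 at 11.0%, mod(mdg4) at 11.2% and CTCF at 23.1%, and su(Hw), ZIPIC, Ibf1, Ibf2 and dwg were not called. The strongest peak of replicate 1 lay nearest to the start of another gene for 14 of the 23 genes named in these lists. It lay 48 bp from the start of wmd for pita (3448 bp from its own), 183 bp from that of qm for CTCF (8217 bp), at −197 bp from that of tin for mod(mdg4) (−1379 bp) and at −303 bp from that of Sdb for cg (11208 bp). A call by the window thus does not assign a peak to the named gene. The shares of these lists were not tested against each other or against the 10 genes.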

How the data were processed

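ChIP-seq peak lists of 3 biological replicates of Aef1-eGFP embryos were used. The authors' file listing names, for every peak list, the filtered alignments of its replicate and 1 further input of unstated role, on dm6. The aligner and caller were not given in the sources used here. Each peak's deposited signal was used only to rank peaks in its own list and to describe single peaks. The deposited score is capped at 1000 and served only in an alternative ranking, and the deposited −log10 of the IDR gave the IDR of each peak, whose lowest listed value is 1e-05.

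Peaks were joined to Ensembl BDGP6.54 protein-coding genes on 6 chromosome arms, with 9 to 22 peaks per replicate elsewhere left out. A peak counted when any base lay in the window. For a gene to be called in all 3 replicates, their peaks did not have to overlap. Peaks overlapping by 1 bp or more across replicates were merged into regions, and the median of the replicates' summits was taken as the summit of a region. Signal tracks and read counts were not used, so the depth and its precision are unknown. The members, gene lists, words and rules were chosen with earlier results of these data known. Named are the 10 genes, up to 4 best-ranked called genes of each other list, the genes whose starts are nearest to a summit in their windows, and the uncalled genes of lists of 10 or fewer. Uncalled Trithorax genes are not named, and Ogt had no matching symbol and is the same gene as sxc. Genes sharing a start region with a summit, and those nearest to a peak of a gene in the other lists, of which only some are named, were named after their values were seen. No test was made, since the design holds 1 group and the genes are a chosen list. The assignment of peaks to genes was tested on simulated data. Alternatives covered the flank, the promoter distance, the IDR limit, the overlap rule, the 4 lists for the whole series, the ranking column and the word window. The work was done in Python 3.11.15, with pandas 2.3.3 for tables, numpy 2.4.6 and, for plots, matplotlib 3.10.9.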

Additional observations from a re-analysis of the deposited data

How the results depend on the processing

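Without flanks, 5 of the 10 genes were called in all 3 replicates (9.65% of all genes), with ph-d, Pc and Sce lost. The other values moved with them. There were 9 regions, with a mean of 0.143 per gene over all genes. The median rank of the strongest peak was 17.6% (34.8% over all called genes). A mean of 5.33 genes was called per replicate (14.5% of all genes). The median rank was 16.2% at an IDR of 0.001 or less and 9.76% at 0.05 or less, beside 32.3% and 26.3% over all called genes. CAACAA was in 2 of the 14 regions in 51 bp (10.2% of all regions). Regions found in 3 replicates numbered 10 at an IDR of 0.001 or less and 15 at 0.05 or less. The means per gene over all genes were then 0.314 and 0.515. Leaving out each replicate in turn gave 8 to 8 genes by the window, 5 to 5 by the promoter and 14 to 15 regions. The median rank was 11.5% to 13.7%, with 8 to 8 genes per replicate. Over all genes the shares were then 33.4% to 35.9% by the window, 12.1% to 12.8% by the promoter and 38.7% to 41.3% per replicate. The median rank over all called genes was 31.2% to 32.2%, and the mean number of regions per gene 0.455 to 0.497. At an IDR of 0.001 or less Sce lost its window call and Su(z)2 its promoter call, Sce also lost it with a 2 kb flank, and E(z) lost both calls when replicates had to overlap by 50% in each direction. Promoters within 1000 bp, or any of the 4 lists for the whole series, added ph-d, and in those longer lists the share of all genes was also higher, at 46.1% to 49.4% by the window and 18.3% to 20.2% by the promoter. The unknown depth limits what absence of a peak shows at esc, Pc, Sce and pho. No paired analysis was possible because the replicates form 1 group.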
